A study of Homo sapiens with 6 samples.

Results

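The mRNAs of 10 genes commonly read as markers of the epithelial-mesenchymal transition (EMT) were compared between PC9 cells with and without knockdown of the splicing factor RBM10. The genes were taken by name: CDH1, EPCAM, CDH2, VIM, FN1, SNAI1, SNAI2, ZEB1, ZEB2 and TWIST1. All 10 were among the 16306 genes of the deposited gene table. ZEB1 and TWIST1 had under 10 counts in every library and ZEB2 in 5 of the 6, and these 3 genes were too low to be tested. The other 7 were among the 12620 genes tested, and none of them passed the test. SNAI2 had the smallest p. Its TMM-normalized counts were lower in each shRBM10 library than in any control library, but this separation was lost when counts were scaled by library size alone. Both groups were PC9 cells, an established line from a human adenocarcinoma of the lung that carries a deletion in EGFR. The controls (sh-NC, n = 3) expressed a negative control shRNA, and the knockdown cells (shRBM10, n = 3) expressed an shRNA against RBM10. The names of the shRBM10 columns contain SH1, but neither the labels nor the methods state which of the study's RBM10 shRNAs was used for RNA-seq. They also do not say whether the lines were clones or how long after transduction RNA was taken. The column of shRBM10 library A carries the title of shRBM10 replicate 1, whereas the columns named here libraries B and C match the group but no single sample. The labels call the samples replicate biosamples and the methods speak in general of independent experiments, but neither says for the RNA-seq that replicates were separate cultures, so that p-values measure the spread between these libraries, which may be technical.

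In EMT, epithelial cells lose cell-cell junctions and gain motile, mesenchymal properties. E-cadherin (CDH1) holds the adherens junctions of epithelial cells together, and EPCAM is an epithelial surface adhesion protein. N-cadherin (CDH2), the intermediate filament protein vimentin (VIM) and the matrix glycoprotein fibronectin (FN1) are the usual mesenchymal products. The SNAI and ZEB zinc-finger proteins repress CDH1 by binding E-box elements in its promoter, and TWIST1 is a basic helix-loop-helix factor that also acts through E-boxes. In lung adenocarcinoma, EMT has been linked to invasion and to resistance to EGFR inhibitors.

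The promoter sequences of members at the extremes of the measured levels are shown for context. RefSeq windows on GRCh38.p14, each from 250 bases before to 50 bases after a transcription start, were matched by symbol for 5 of the 10 genes (CDH2, VIM, FN1, ZEB1 and ZEB2; 12 windows). FN1 was the most abundant mesenchymal product in these cells, VIM was among the low members, and ZEB1 was almost without reads. The windows lie at chr2:215436019-215436318 (FN1, minus strand), chr10:17227991-17228290 (VIM, plus strand) and chr10:31318966-31319265 (ZEB1, plus strand, 1 of its 7 windows). Capitals mark the E-box sequence CAGGTG, or CACCTG where it lies on the other strand, and the palindromic cyclic AMP response element TGACGTCA. The motifs do not overlap each other.
FN1 promoter: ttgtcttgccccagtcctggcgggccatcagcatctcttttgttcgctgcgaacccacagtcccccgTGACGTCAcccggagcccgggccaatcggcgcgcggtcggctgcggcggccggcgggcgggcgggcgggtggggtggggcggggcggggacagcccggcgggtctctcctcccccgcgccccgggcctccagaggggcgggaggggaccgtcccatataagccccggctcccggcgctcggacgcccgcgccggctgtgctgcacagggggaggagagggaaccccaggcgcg
VIM promoter: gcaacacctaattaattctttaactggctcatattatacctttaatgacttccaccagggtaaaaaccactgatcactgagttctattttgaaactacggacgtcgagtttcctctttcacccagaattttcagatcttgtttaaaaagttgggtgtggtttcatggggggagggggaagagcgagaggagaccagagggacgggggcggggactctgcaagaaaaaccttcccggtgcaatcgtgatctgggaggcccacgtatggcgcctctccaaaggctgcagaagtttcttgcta
ZEB1 promoter: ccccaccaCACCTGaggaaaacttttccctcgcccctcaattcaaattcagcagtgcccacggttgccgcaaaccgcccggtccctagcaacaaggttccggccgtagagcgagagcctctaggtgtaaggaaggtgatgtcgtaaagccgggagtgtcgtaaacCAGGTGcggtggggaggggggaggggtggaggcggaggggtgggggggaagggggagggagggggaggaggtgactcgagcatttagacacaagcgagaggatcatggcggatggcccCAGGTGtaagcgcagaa
CAGGTG, on either strand, occurred in 20.6% of the 35116 RefSeq windows of this length and TGACGTCA in 1.85%. Of the 5 members with a window, ZEB1 alone held CAGGTG on either strand, and FN1 alone held TGACGTCA, once. Other E-box sequences were not searched for, so a window without this motif can hold another E-box. CAGGTG was in 2 of the 7 ZEB1 windows, with 3 matches in the window shown, the most of any, and 1 in another. ZEB1 had 7 of the 12 windows, so the members were not compared over equal numbers of windows. GC content was 76.7% in the FN1 window and 48.0% in the VIM window. A match describes these letters only.

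Total counts per library ranged from 18181902 to 18864241 in sh-NC and from 16606401 to 18526158 in shRBM10. RBM10 itself (chrX:47144869-47186813) had normalized counts of 1431, 1183 and 1469 in the controls against 537, 515 and 672 after knockdown, a log2 fold change of -1.24 (SE 0.23) with an adjusted p of 0.10 in edgeR's quasi-likelihood test (Benjamini-Hochberg). The shRBM10 libraries thus all lay below the controls, although the gene did not pass the adjusted limit by edgeR (adjusted p = 0.00134 by DESeq2). Some libraries stood apart. The log2 levels of sh-NC replicate 2 correlated across genes with those of replicates 1 and 3 at r = 0.942 and 0.943, compared with 0.994 between replicates 1 and 3, and were low for the longest quintile of genes (median -0.46 on the log2 scale against the mean of the libraries). Replicates 1 and 3 nevertheless differed by more than sampling noise (chi-square over its degrees of freedom, 2.93) and were kept as separate samples. Library C correlated with libraries A and B at r = 0.948 and 0.970. By the same chi-square measure it lay nearer to control replicates 1 and 3 (29.8 and 30.2) than to libraries A and B (97.9 and 53.9). Genes in the lowest quintile of GC content were high in libraries A and B (medians of 0.83 and 0.52) and low in control replicate 2 (-0.66), with -0.18 and -0.21 in control replicates 1 and 3 and -0.22 in library C. The TMM factor was 0.738 in control replicate 2 and 1.03 to 1.08 in the other libraries, so that values of this replicate depend most on the scaling. For the tested members, log2 fold changes without replicate 2 and with the GC trend removed are therefore given beside the main ones. The cells had the keratins of a simple epithelium, with KRT7, KRT8, KRT18 and KRT19 at 50062 to 347195 counts. Lists of fibroblast, endothelial, leukocyte and retina markers, which held both genes near 0 and genes with counts, are described at the end. Retina markers were looked at because the protocol label speaks of retinas, whereas the other labels and the paper give PC9.

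Levels were compared between genes per transcript length, in TPM, a measure scaled to both transcript length and library size. PC9 control cells expressed both epithelial markers and 1 mesenchymal marker strongly. Mean TPM in sh-NC was 281 ± 87.6 (SD, n = 3) for EPCAM, 181 ± 122 for FN1 and 39.1 ± 22.2 for CDH1. SNAI2 (9.04 ± 3.51) and CDH2 (8.77 ± 3.80) followed, then SNAI1 (1.69 ± 0.23) and VIM (1.24 ± 0.48). TWIST1 (0.24 ± 0.05), ZEB1 (0.023 ± 0.025) and ZEB2 (0.023 ± 0.012) were the lowest. The ranges of EPCAM and FN1 overlapped over the 3 controls, as did those of FN1 and CDH1 and of SNAI1 and VIM, with the lowest value of each gene in replicate 2. Within each control library, however, EPCAM stood above FN1, FN1 above CDH1 and SNAI1 above VIM. SNAI2 and CDH2 did not keep 1 order over the 3 controls, nor did ZEB1 and ZEB2, so that these neighbours did not separate beyond their spread. The ranges of CDH1 and SNAI2, of CDH2 and SNAI1, of VIM and TWIST1 and of TWIST1 and ZEB1 did not overlap. The authors' mean TPM in shRBM10 was 308 for EPCAM, 268 for FN1, 54.7 for CDH1, 11.7 for CDH2, 7.24 for SNAI2, 2.14 for SNAI1, 1.67 for VIM, 0.207 for TWIST1, 0.0467 for ZEB2 and 0.0133 for ZEB1. By these means CDH2 stood above SNAI2, and ZEB2 above ZEB1, while the rest of the order was that of the controls. These are levels of a culture, in which fewer cells expressing a gene and less RNA per cell cannot be told apart.

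**Figure D1:**
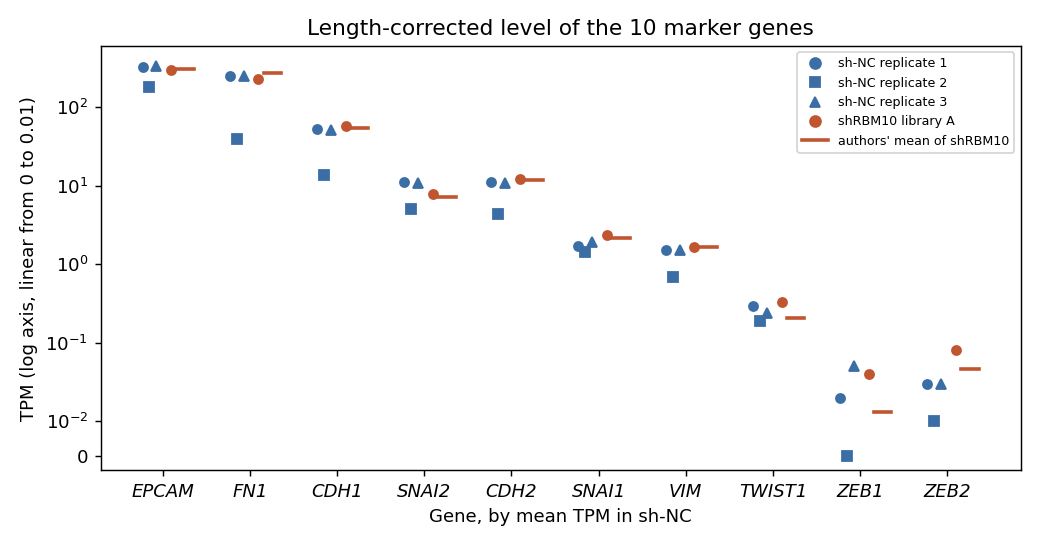
TPM on a log axis (linear below 0.01) of the 10 genes, ordered by their mean in sh-NC. Blue points are the 3 sh-NC libraries, the orange point is shRBM10 library A and the orange bar is the authors' mean of shRBM10; EPCAM and FN1 lie highest in every library shown, and ZEB1 and ZEB2 lie below 0.1 TPM.

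Between the groups, 0 of the 7 tested members were called at an adjusted p under 0.05 with an absolute log2 fold change over 1 (edgeR), where 0.0158% of all 12620 genes were. DESeq2 also called 0 of the 7, against 4.35% of the genes to which it gave an adjusted p, and limma-voom called 0. At an unadjusted p under 0.05, 0 of the 7 members passed with any fold, while 24.3% of all genes did, and 11.6% of all genes also passed the fold limit. Normalized counts of sh-NC and shRBM10 did not overlap for 2 members, CDH2 and SNAI2, compared with 30.1% of all genes. A share of 2 in 7 is near that background. Scaled by library size alone, CDH2 and SNAI1 did not overlap, both higher in shRBM10, and SNAI2 did, compared with 27.2% of all genes without overlap. With 3 libraries against 3, an exact permutation test of a single gene cannot give a two-sided p below 0.1.

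**Figure D2:**
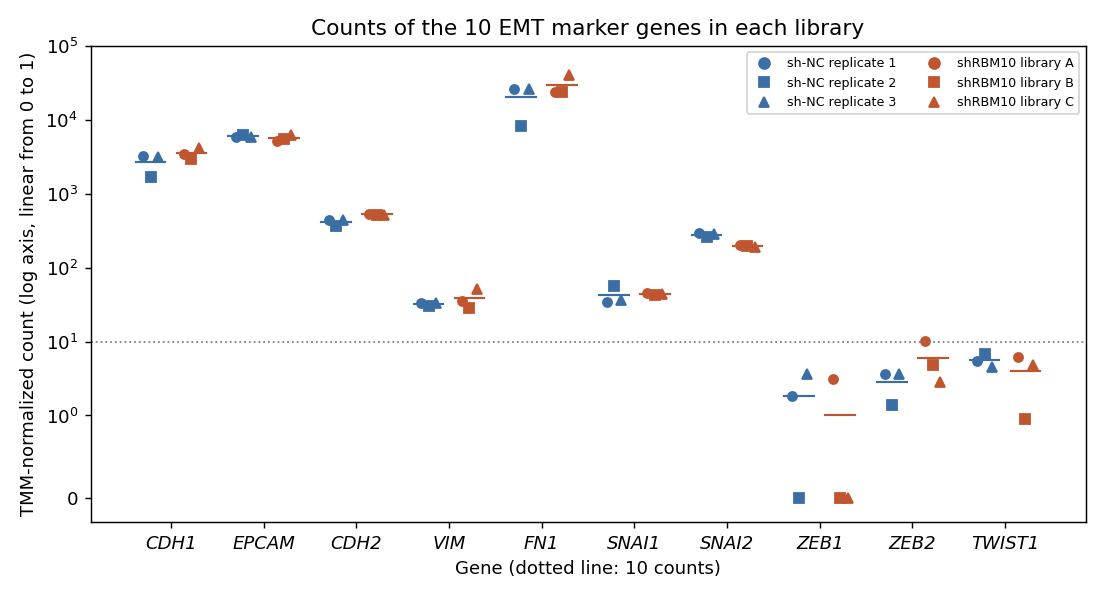
TMM-normalized counts of the 10 genes in each library (log axis, linear below 1). Blue points are sh-NC, orange points shRBM10, short lines the group means and the dotted line 10 counts; FN1 and CDH1 are lowest in sh-NC replicate 2, and SNAI2 is the gene whose orange points all lie below the blue ones on this scale.

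Of the epithelial genes, CDH1 (Entrez gene 999, chr16:68737225-68835548) had normalized counts of 3242, 1676 and 3180.1 in control replicates 1, 2 and 3, and of 3473, 2981 and 4200.2 in knockdown libraries A, B and C, the order used from here on. Coordinates are those of GENCODE release 29 on GRCh38. The groups overlapped, and replicate 2 was 1.92-fold below the mean of the other controls. The means were 2699 ± 887 and 3551 ± 614 (SD, n = 3), a log2 fold change of 0.40 with a 95% interval of -0.26 to 1.05 (adjusted p = 0.391, edgeR). The log2 fold change was 0.06 without replicate 2 and 0.39 with the GC trend removed. A difference in E-cadherin mRNA was therefore not detectable, and as a ratio the interval ran from 0.836 to 2.07.

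EPCAM (Entrez gene 4072, chr2:47345158-47387601) had 5783, 6246 and 5872 normalized counts in control cells against 5185, 5532 and 6307 with shRBM10. The groups overlapped, and the highest value of all was in library C. The log2 fold change was -0.07 with an interval of -0.56 to 0.41 (adjusted p = 0.846, edgeR), the narrowest among the 7 genes. It was -0.12 without replicate 2 and -0.32 with the GC trend removed.

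Of the mesenchymal products, CDH2 (Entrez gene 1000, chr18:27950966-28177446) had normalized counts of 446, 363 and 448 in the controls and 539, 521 and 519 in the knockdown libraries. Every shRBM10 library lay above every control. The log2 fold change was 0.33 with an interval of -0.19 to 0.85 (adjusted p = 0.372, edgeR). N-cadherin transcripts have a GC content of 43.8%, at percentile 27.9 of the genes tested. With the GC trend of each library removed the log2 fold change was -0.12, so that the direction turned, and without replicate 2 it was 0.15.

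VIM (Entrez gene 7431, chr10:17228259-17237593) had 33.6, 30.1 and 33.4 normalized counts in control cells against 35.9, 28.7 and 50.9 with shRBM10. Library C was the highest and library B the lowest of all 6. The log2 fold change was 0.25 with an interval of -0.49 to 0.98 (adjusted p = 0.633, edgeR), and -0.06 without library C. It was 0.12 without replicate 2 and 0.37 with the GC trend removed. Vimentin gave 22 to 53 raw counts per library, which limits the precision. All of these were assigned to XM_006717500, the only VIM transcript among the transcript counts, and no NM_ transcript of VIM was listed. Whether the low level of VIM depends on this was not tested. The gene overlaps the antisense gene VIM-AS1 in GENCODE release 29, as ZEB1 and ZEB2 overlap ZEB1-AS1 and ZEB2-AS1, and whether reads were counted by strand is not given in the sources used here.

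FN1 (Entrez gene 2335, chr2:215360440-215436172) had 26384, 8306 and 25889 normalized counts in control cells against 23641, 23707.5 and 40555 with shRBM10. Control replicate 2 was 3.15-fold below the mean of the other controls, and libraries A and B lay below both of those. The means of 20193 ± 10297 and 29301 ± 9746 (SD, n = 3) gave a log2 fold change of 0.54 with an interval of -0.46 to 1.54 (adjusted p = 0.441, edgeR), the widest among the 7 genes. It was 0.09 without replicate 2, 0.16 without library C and 0.49 with the GC trend removed. The size of the fibronectin difference thus depended on 1 library of each group.

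Of the transcription factors, SNAI2 (Slug; Entrez gene 6591, chr8:48917604-48921740) had 297, 260.2 and 282 normalized counts in control cells against 203, 199 and 192 with shRBM10. On this TMM scale every shRBM10 library lay below every control. Counts divided by library size alone were 17.5, 10.45 and 16.5 CPM in the controls against 11.9, 11.3 and 10.8 CPM with shRBM10, so that control replicate 2 was then the lowest of all 6 libraries and the groups overlapped. By TPM, control replicate 2 (5.00) likewise lay below library A (7.87) and the authors' shRBM10 mean. The TMM-normalized means were 279.7 ± 18.7 and 198 ± 5.66 (SD, n = 3), a log2 fold change of -0.50 (SE 0.25) with an interval of -1.06 to 0.07. The unadjusted p was 0.0784 and the adjusted p 0.242 (edgeR). The direction was the same in all 15 alternatives, from -0.38 with library size alone to -1.02 with the GC and length trends removed. The unadjusted p was under 0.05 in 3 of them: 0.0189 without control replicate 2 (log2 fold change -0.63), 0.0031 with the GC trend removed (-0.99) and 0.0029 with the GC and length trends removed, where the adjusted p was 0.114 (edgeR). Lower adjusted p-values than this were not reached in any alternative, so SNAI2 was not called.

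SNAI1 (Snail; Entrez gene 6615, chr20:49982999-49988886) had 34.5, 56.1 and 37.0 normalized counts in control cells against 45.2, 43.1 and 44.2 with shRBM10. The highest value was in control replicate 2 and the lowest in control replicate 1, so the knockdown libraries lay within the range of the controls. The log2 fold change was 0.07 with an interval of -0.64 to 0.77 (adjusted p = 0.903, edgeR). It was 0.22 without replicate 2 and 0.36 with the GC trend removed. By library size alone, all 3 knockdown libraries lay above the controls, at 2.65, 2.45 and 2.48 CPM against 2.02, 2.25 and 2.17 CPM. The 2 SNAI genes thus had different point estimates, but a test of their difference was not part of the design.

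**Figure D3:**
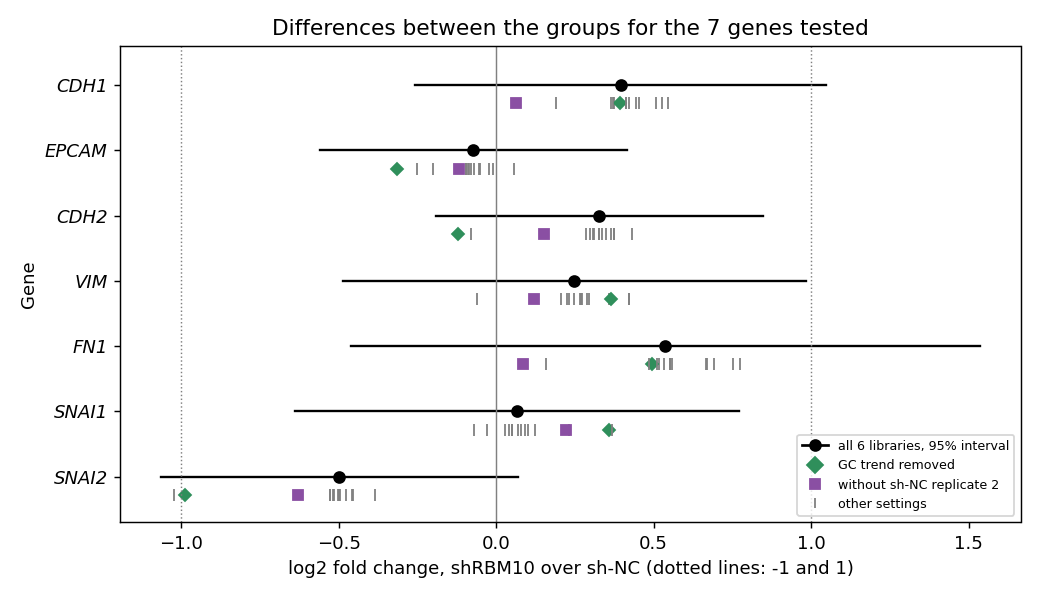
Log2 fold change of shRBM10 over sh-NC for the 7 tested genes: black points with 95% intervals are the fit over all 6 libraries, and the marks under each are the 15 alternatives, with the GC trend removed in green and control replicate 2 left out in purple. All 7 intervals include 0, and SNAI2 is the gene whose marks are all below 0 by at least 0.38.

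The 3 factors at the lower limit are given as raw counts. ZEB1 (Entrez gene 6935, chr10:31318495-31529814) had 2, 0 and 4 counts in control cells against 3, 0 and 0 with shRBM10. In libraries with no ZEB1 count, a count of 0 allows up to 3 counts, or a CPM (counts scaled to library size) of 0.165 in control replicate 2, 0.163 in library B and 0.162 in library C. This limit covers counting error only. ZEB2 (Entrez gene 9839, chr2:144364364-144524583) had 4, 1 and 4 counts in control cells against 10, 5 and 3 with shRBM10, so that only library A reached 10. TWIST1 (Entrez gene 7291, chr7:19020991-19117672) had 6, 5 and 5 counts in control cells against 6, 1 and 5 with shRBM10. The groups overlapped for all 3 genes. With no filter on low counts, the unadjusted p was 0.477 for ZEB1, 0.209 for ZEB2 and 0.508 for TWIST1 (edgeR; adjusted p 0.667, 0.451 and 0.691). A difference in these genes was not detectable at this depth.

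Ratios of counts within a library do not depend on the scaling between libraries. The CDH1 count was 10.9, 6.44 and 11.3 times that of SNAI2 in sh-NC and 17.1, 15.0 and 21.9 times in shRBM10. EPCAM counts were 19.4, 24.0 and 20.9 times those of SNAI2 in sh-NC and 25.5, 27.8 and 32.8 times in shRBM10. Both ratios were higher in every shRBM10 library than in any control. They share the SNAI2 count, and normalized counts of 30.1% of all single genes also did not overlap. How often ratios of other gene pairs separate the groups was not computed. The FN1 count was 8.14, 4.96 and 8.14 times that of CDH1 in sh-NC and 6.81, 7.95 and 9.66 times in shRBM10, and the CDH1 count was 96.6, 55.6 and 95.2 times that of VIM in sh-NC and 96.7, 104 and 82.5 times in shRBM10. These ratios of an epithelial to a mesenchymal product overlapped between the groups. The ratios of CDH1 to CDH2, EPCAM to CDH1 and EPCAM to FN1 overlapped as well. The ratios were chosen after the values were seen and were not tested.

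**Figure D4:**
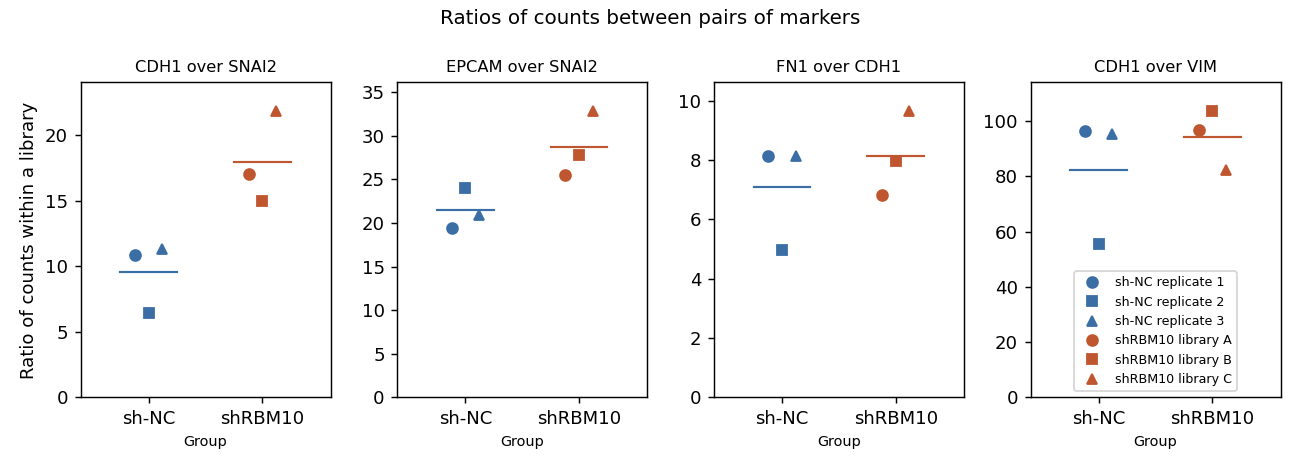
Ratio of counts within each library for 4 pairs of markers, by group, on axes that start at 0; short lines are group means. CDH1 over SNAI2 and EPCAM over SNAI2 separate the groups, and FN1 over CDH1 and CDH1 over VIM do not.

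Across the 6 libraries, log2 normalized counts of CDH1 and FN1 correlated at r = 0.98, and those of CDH2 and SNAI2 at r = -0.72. These values are descriptions over 6 libraries that share the low replicate 2 and the 2 groups. The genes most like SNAI2 among 11064 were IBA57, a mitochondrial iron-sulfur protein assembly factor (r = 0.977), MYRF, a membrane-bound transcription factor (r = 0.975), and TIMP3, an inhibitor of matrix metalloproteinases (r = 0.972). The genes most correlated with CDH2 were DAB2, a clathrin adaptor (r = 0.998), TRANK1 (r = 0.998) and CDKN2B, a cyclin-dependent kinase inhibitor (r = 0.995). Their log2 fold changes were larger, at 1.33, 1.72 and 1.12, compared with 0.33 for CDH2. Those of IBA57, MYRF and TIMP3 were -0.82, -0.53 and -0.97, compared with -0.50 for SNAI2. SNAI2 had 20 genes above r = 0.95 and CDH2 had 222.

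Transcript counts, which are the authors' estimates of how reads divide between RefSeq transcripts, allowed a test of transcript usage in CDH1, CDH2 and FN1. None of the 3 was called by edgeR, where 0.0958% of 8348 genes were. The unadjusted Simes p was 0.386 for CDH1, 0.562 for CDH2 and 0.884 for FN1. CDH1 was nearly all NM_004360, with 99.9% ± 0.18 of its count in sh-NC and 99.3% ± 0.31 in shRBM10 (SD, n = 3). For CDH2, NM_001792 took 44.5%, 52.9% and 53.9% in sh-NC and 72.3%, 59.8% and 53.9% in shRBM10, and XM_017025514 took the rest. Library A was thus the highest, and the groups met at the level of library C. FN1 counts were divided over 23 transcripts, of which NM_002026 took 16.8% ± 0.61 in sh-NC and 15.9% ± 0.97 in shRBM10.

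Genes that work with the markers were grouped in 6 lists by role. Of the 110 that were tested, 0 were called by edgeR, and 12 (10.9%) passed an unadjusted p under 0.05 with an absolute log2 fold change over 1, compared with 11.6% of all genes. DESeq2 called 5 of them, PATJ, DSG2, EHF and ITGB6 higher and AXL lower. It called 4.35% of all genes to which it gave an adjusted p, and 5 of 110 is near that background. Of the 1465 genes that passed the unadjusted limits among all genes, 1272 were higher in shRBM10. Fewer of all genes passed these limits in the alternatives given below: 813 of 12795 without replicate 2 and 596 of 12620 with the GC trend removed. In epithelial adhesion and polarity 5 of 34 passed, all higher in shRBM10, and 2 of 34 passed without replicate 2 or with the GC trend removed (list median log2 fold change 0.06, all genes 0.03). These were PATJ, a polarity scaffold (1.59), the desmosomal cadherins DSG2 (1.58) and DSC2 (1.33), PALS1, a partner of PATJ (1.09), and AFDN, the junction protein afadin (1.15), which is named because it completes the count. With the GC trend removed these log2 fold changes were 1.03, 0.90, 0.59, 1.09 and 1.01, and without replicate 2 they were 1.29, 1.09, 0.86, 0.72 and 0.63. The adjusted p by DESeq2 was 0.0136 for PATJ and 0.037 for DSG2. Among regulators of the epithelial state 1 of 13 passed, the ETS factor EHF (1.47; list median 0.00). It was 1.03 without replicate 2 and 1.12 with the GC trend removed, with an adjusted p of 0.0424 by DESeq2.

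In the mesenchymal list 2 of 22 passed, AXL and CALD1 (median -0.13). Without replicate 2 again 2 of 22 passed, but CALD1 was not among them. With the GC trend removed 1 of 22 passed, which was neither AXL nor CALD1. AXL, a receptor tyrosine kinase of mesenchymal-like cancer cells, had 1274, 778 and 1228 normalized counts in control cells against 535, 463 and 582 with shRBM10 (log2 fold change -1.05, adjusted p = 0.142 by edgeR and 0.0203 by DESeq2). Every shRBM10 library was below every control, and the log2 fold change was -0.80 with the GC trend removed and -1.33 without replicate 2. CALD1, an actin-binding protein, had a log2 fold change of 1.44 (adjusted p = 0.172, edgeR), 0.92 without control replicate 2 and 0.96 with the GC trend removed. Of the other EMT transcription factors 0 of 14 passed by edgeR (median -0.21), and 1 of 14 did without replicate 2. The most abundant were TCF3 (-0.67) and SOX9 (-0.44). With a smaller fold, 3 of the 14 had an unadjusted p under 0.05 (edgeR), where 24.3% of all genes did with any fold. These were SOX4 (0.80) and TCF4 (0.96), both higher in shRBM10, and TCF3, lower. Among partners and turnover factors of SNAI and ZEB proteins 1 of 22 passed, the ubiquitin ligase subunit FBXO11 (1.14; median 0.14), with 0.46 when the GC trend was removed and 0.65 without replicate 2. In either case 0 of 22 passed by edgeR.

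Of the 5 fibronectin receptor genes tested, 3 passed the unadjusted limits, all higher in shRBM10, and 1 of 5 did without replicate 2 or with the GC trend removed. Over all genes the share was 11.6% in the main fit, most of them higher. It was 813 of 12795 genes without replicate 2 and 596 of 12620 with the GC trend removed. ITGB6, an integrin subunit of epithelial cells, had 405, 129 and 337 normalized counts in control cells against 1509, 1296 and 647 with shRBM10 (log2 fold change 1.98, adjusted p = 0.130 by edgeR and 0.00179 by DESeq2). The groups did not overlap, and the value was 1.32 with the GC trend removed and 1.55 without control replicate 2. ITGAV (1.38) and ITGB1 (1.12) were at 0.61 and 0.39 with the GC trend removed and at 0.93 and 0.77 without replicate 2, while ITGA5 (0.07) and SDC4 (0.07) were near 0. ITGB3 had too few counts to be tested. In each of ITGB6, ITGB1 and ITGAV, libraries A and B, in which low-GC genes were high, were above library C.

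Markers of other cell types were set beside these results. Of the endothelial list, CDH5 (VE-cadherin) had 177, 61 and 176 counts in control cells against 40, 62 and 57 with shRBM10, and VWF had 5 to 27 counts over all libraries, while PECAM1, KDR and TEK had 0 to 3. The list summed to 99.96 to 188 normalized counts in sh-NC and 49.3 to 69.9 in shRBM10. Of the fibroblast list 4 of 7 genes were in the table, with COL1A1 at 28 to 185 counts, PDGFRB at 8 to 26, and COL1A2 and COL3A1 at 0 to 2. This list summed to 58.9 to 125 normalized counts in sh-NC and 109 to 204 in shRBM10. Of the leukocyte list CD68, a lysosomal protein, had 1795 to 2442 counts and PTPRC 0 to 7, and of the retina list NRL had 64 to 115 counts and CRX and PDE6B 0 to 3. The leukocyte list summed to 1888 to 3355 normalized counts in sh-NC and 1821 to 2343 in shRBM10, and the retina list to 85.7 to 159 and 63.2 to 77.8. Epithelial markers summed to 541721 to 1011830 in sh-NC and 432305 to 642169 in shRBM10, from KRT7, KRT8, KRT18, KRT19, KRT5 and MUC1. The part of these genes in the marker results was not tested.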

How the data were processed

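Poly(A) RNA of PC9 cells (3 sh-NC, 3 shRBM10) was sequenced by BGI-Tech. The protocol label speaks of 2 library kits, and kit was not a covariate in any fit. The authors deposited estimated counts and TPM per gene and estimated counts per RefSeq transcript. The labels name hg38, while the aligner, counter and annotation are not given in the sources used here. In all, 32 further columns of per-library values were not used, nor were the authors' comparisons. Estimated counts (87.5% whole in the gene table, 41.1% in the transcript table) were rounded. edgeR 4.0.16 with limma 3.58.1 (R 4.3.3) filtered genes (filterByExpr), scaled them (TMM) and tested them (glmQLFTest, no covariate). Normalized counts refer to the mean effective library size. Adjusted p-values are Benjamini-Hochberg values over all genes tested. Transcript usage was tested with diffSpliceDGE. Alternatives were DESeq2 1.42.0, limma-voom, 3 other scalings, 2 other filters, each library left out in turn, and loess trends (span 0.3) on GC content or on GC content and length removed, with GC content from GENCODE release 29 transcripts for 97.8% of genes tested. The fits were tested on simulated counts with a single fixed dispersion. These held no GC or length trend and no outlying library, so that this test does not cover such features of the data. The members and lists were chosen with earlier results of these data known. Named are RBM10, all members, per list up to 4 genes with the smallest p among those past the unadjusted limits (otherwise the 2 most abundant), any gene of a list of under 9, the 3 genes most correlated with each of the 2 members of smallest p (mean normalized count of at least 50), and marker genes with 10 or more counts in a library. Genes named outside this rule, AFDN, SOX4, TCF4 and markers at few counts, were chosen after their values were seen. Depth limits the low members, and intervals cover the spread between libraries.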

Additional observations from a re-analysis of the deposited data

How the results depend on the processing

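In the fits made, 0 members were called in all 15 alternatives, and the log2 fold changes of CDH1 and FN1 stayed above 0 and that of SNAI2 below 0. Signs turned for the members nearest to 0. The log2 fold change of CDH2 was -0.12 with the GC trend removed and -0.078 with the GC and length trends removed. That of EPCAM was 0.057 with library size only. Leaving out each library in turn gave VIM -0.059 (without library C) to 0.42 (without library B), and SNAI1 -0.070 and -0.028 (without sh-NC replicates 1 and 3) to 0.22 (without replicate 2). With the GC and length trends removed, 1 member (SNAI2) passed the unadjusted limits. The count of related genes past these limits, 12 over all libraries, was 5 with library size only, 5 with the GC trend removed, 4 with the GC and length trends removed, and 5 to 14 when each library was left out in turn, the lowest without library A. Among all genes, 1465 passed the unadjusted limits (1272 higher, 193 lower), 596 with the GC trend removed (316 higher, 280 lower) and 813 without replicate 2, and edgeR's adjusted calls went from 2 to 5 and 23, against 544 by DESeq2. Scaling by library size only moved the median log2 fold change of all genes from 0.03 to 0.16. Transcript usage gave 0 member calls in all 8 alternatives. No paired analysis was possible because the columns of the 2 groups share only 1 replicate number. Depth limited VIM (22 to 53 counts per library), SNAI1 (38 to 46) and the members under 10 counts.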
